A study of Homo sapiens with 8 samples.

Results

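The comparison set SKOV3 against OVCAR5, both human ovarian carcinoma cell lines, in the state they had reached after 48 h with 10 µM lovastatin. Its members were the genes read by a probe of 1 gene symbol that at least 2 of the 4 lovastatin arrays detected (detection p below 0.01), 10656 of the 20046 genes with such a probe on the array. They were read by 13996 probes, and each gene was represented by the brightest of its own. RNA of 4 groups was hybridised to expression beadchips, with 2 arrays a group: SKOV3 with lovastatin, SKOV3 with DMSO (the solvent), OVCAR5 with lovastatin and OVCAR5 with DMSO, all in RPMI medium with fetal calf serum. The lovastatin and DMSO comparisons of the lines share no array. Separate cultures for the 2 arrays of a group are not stated in the labels, so the p-values measure only the spread between arrays, which may be technical. Each cell type is 1 established line, so a line difference belongs to these lines and not to a class of tumour. Fewer transcripts per cell and a different mix of cell states within a culture cannot be told apart in bulk RNA.

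Lovastatin inhibits HMG-CoA reductase, the enzyme that commits acetyl units to the mevalonate pathway. The pathway supplies cholesterol and the farnesyl and geranylgeranyl lipids that anchor many signalling proteins to membranes. Cells short of sterol raise the genes of sterol synthesis and uptake through the transcription factor SREBP2, and cells short of prenyl lipids are known to change actin-linked transcription through SRF and the coactivators YAP and TAZ. SKOV3 is known for amplification of ERBB2, a receptor tyrosine kinase gene. OVCAR5 is used as an ovarian line, and an origin outside the ovary has been discussed for it, which is why gastrointestinal genes were included among the lists below.

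Between 15370 and 17231 of the 47323 probes were detected on an array, and the 95th percentile of signal was 13.7 to 17.3 times the median of undetected probes. Replicate arrays correlated at r = 0.9877 to 0.9944 across genes. The lovastatin pair of SKOV3 was the least alike, with an SD of the log2 difference between its arrays of 0.34 against 0.23 to 0.25 in the other groups. A level below is the normalized log2 intensity, a difference is SKOV3 minus OVCAR5 on that scale with its standard error (SE) from the fit, and a log2 difference of 1 is 2-fold. Levels of different genes come from different probes and are not set against each other.

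The labels were checked against defining markers. EPCAM, KRT8 and KRT18, genes of epithelial cells, were detected on all 4 lovastatin arrays. KRT8 had a difference of 0.32 ± 0.16 (adjusted p = 0.0983), with SKOV3 arrays at 11.22 and 11.36 and OVCAR5 arrays at 10.85 and 11.09, and it was called without background correction (adjusted p = 0.046) and with a trended and robust variance prior (adjusted p = 0.0498). KRT19, a keratin of simple epithelium, went against the epithelial label of OVCAR5: it was not well above background there on any array of either state. ERBB2 and GRB7, its neighbour in the amplified region, were high in SKOV3. CDH1, ZEB1, KRT20, WT1, MUC16, LGALS4, CDX2, CDH17, CDKN2A and MDM2 have probes and were undetected on all 4 lovastatin arrays. Of these, CDH1, the cadherin of epithelial cells, also went against the epithelial label, in both lines. The identity of the lines was not checked beyond such markers. Of 31 gastrointestinal genes with a probe, 3 were kept, LIPH and ANXA10 called higher in OVCAR5 and ELF3 called higher in SKOV3 (difference 0.47 ± 0.17), a call that ended when any 1 of the 4 lovastatin arrays was left out (0.44 to 0.50).

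Markers of other cell types were mostly at background. Of 9 leukocyte genes with a probe, 4 were kept, and PTPRC, CD53, SPI1 and CD3E, which define leukocytes, were undetected on all lovastatin arrays. The summed normalized intensity of the leukocyte list was 428 to 499.9 in the SKOV3 lovastatin arrays and 1003 to 1006 in the OVCAR5 lovastatin arrays, and LAPTM5, CD14 and CORO1A were called higher in OVCAR5. The fibroblast list summed to 559 to 603 in SKOV3 and 445 to 455 in OVCAR5, with 3 of 10 genes kept and PDGFRA, THY1, COL1A2, LUM, PDGFRB and FAP undetected. Of 8 endothelial genes 1 was kept, ESAM, called higher in OVCAR5, and KDR, PECAM1, CDH5 and VWF were among the undetected. The endothelial sum was 206 to 216.5 in SKOV3 and 294 to 298 in OVCAR5. Whether other cells add to any line difference was not tested.

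Under lovastatin 7492 of the 10656 genes differed between the lines at an adjusted p under 0.05, 70.3% of all tested. Of these, 3860 were higher in SKOV3 (36.2%) and 3632 were higher in OVCAR5 (34.1%), and the median difference over all genes was 0.02. A difference of at least 2-fold was called for 4024 genes, 2124 higher in SKOV3 and 1900 in OVCAR5, and one of at least 16-fold for 211, 136 and 75. In 8862 genes, 83.2%, the lovastatin arrays of the lines did not overlap. A count for a group of genes is therefore read against these shares. For genes detected on all 4 lovastatin arrays the calls numbered 5793 of 8521, 2843 higher in SKOV3 and 2950 in OVCAR5. Counts among list members detected on all 4 lovastatin arrays are read against these. Under lovastatin 914 genes were detected on both SKOV3 arrays and neither OVCAR5 array, of which 570 had the same pattern in DMSO. The reverse held for 514 genes, of which 234 had the same pattern in DMSO. For a gene undetected in 1 line the text gives a lower bound of the fold ("at least"), set by the dimmest probe well above background on each array, with the adjusted p of the fit. Such a gene entered through the line where it is high, so its direction was fixed by the filter, and a list that holds several is given also by its calls among the members detected on all 4 lovastatin arrays.

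The widest gaps toward SKOV3 included cell surface, cytoskeletal and germ cell genes. CD24, a surface glycoprotein of epithelial and tumour cells, stood at 13.70 and 13.48 in SKOV3 and at 4.57 and 4.48 in OVCAR5, at least 276-fold higher in SKOV3 (adjusted p = 1.22e-09). A second CD24 probe gave a log2 difference of 5.13. KRT19 reached 13.05 and 12.90 in SKOV3 against 4.74 and 4.72, at least 181-fold (adjusted p = 1.31e-09), and its SKOV3 arrays in DMSO were lower, 11.15 and 11.03. CDH2, the adhesion molecule N-cadherin, read 12.26 and 12.22 in SKOV3 and 4.38 and 4.53 in OVCAR5, at least 109-fold (adjusted p = 1.76e-09). These 3 genes separated the lines completely in both states. CD70, a ligand of the TNF family, was at least 117-fold higher and DHRS2, a short-chain dehydrogenase, at least 187-fold higher in SKOV3 (second probe, log2 difference 6.54). Probes of SPANXA1, SPANXA2, SPANXB1, SPANXC and SPANXD, near-identical X-linked genes of sperm, read 14.01 to 14.21 in SKOV3 and 4.48 to 5.67 in OVCAR5. A second SPANXB1 probe gave 1.57. Which copy gave the signal is uncertain.

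MMP10, the secreted protease stromelysin-2, was the member of this group whose gap belonged mostly to the treated state. Its SKOV3 arrays read 12.75 and 12.49 under lovastatin and 5.95 and 6.15 in DMSO, and its OVCAR5 arrays read 5.02 and 4.99 under lovastatin and 4.66 on both in DMSO. The lovastatin arrays of SKOV3 were thus the only high ones. The gene was at least 141-fold higher in SKOV3 under lovastatin (adjusted p = 3.02e-09). In DMSO, where OVCAR5 was undetected, it was at least 1.42-fold higher, and the difference between the states was called.

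The widest gaps toward OVCAR5 included mitochondrial, junction and growth factor genes. UQCRH, the hinge subunit of respiratory complex III, read 13.48 and 13.68 in OVCAR5 and 4.43 and 4.51 in SKOV3, at least 291-fold higher in OVCAR5 (adjusted p = 1.22e-09). The probe of UQCRHL, a near-identical copy, read 13.49 and 13.59 in OVCAR5 and 5.33 and 5.62 in SKOV3, and a second UQCRH probe gave -4.90, so the share of each gene is uncertain. CLDN11, a tight junction claudin, stood at 13.22 and 13.45 in OVCAR5 and at 5.02 and 5.0 in SKOV3, at least 245-fold higher (adjusted p = 2.55e-09). IGFBP4, which binds insulin-like growth factors, was at least 123-fold higher, CHCHD10, a mitochondrial cristae protein, at least 61.9-fold, and FJX1, a secreted protein of the four-jointed family, at least 42.8-fold. The direction was the same in DMSO, where each of these genes was called too.

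OVCAR5 also carried genes best known from blood cells. RAC2, a GTPase of haematopoietic cells, read 12.84 and 12.76 in OVCAR5 and 5.12 and 5.17 in SKOV3, at least 169-fold higher in OVCAR5 (adjusted p = 1.31e-09). FERMT3, the kindlin of platelets and leukocytes, was at least 68.0-fold (second probe, log2 difference -5.40) and PLBD1, a phospholipase B-like protein, at least 40.1-fold higher. Of the leukocyte markers, LAPTM5, a lysosomal membrane protein, read 8.90 and 8.82 on the same arrays, at least 11.01-fold higher in OVCAR5, and CD14, a lipopolysaccharide receptor, read 6.54 and 6.41, at least 2.11-fold higher. CD53, SPI1 and PTPRC were undetected there. CALB2, the calcium-binding protein calretinin, read 11.85 and 11.73 against 5.72 and 5.97 in SKOV3, a difference of -5.94 ± 0.13 (adjusted p = 5.49e-09), but its second probe gave -1.59. SLC2A3, the glucose transporter GLUT3, widened its gap: OVCAR5 arrays read 10.48 and 10.53 under lovastatin and 8.61 and 8.45 in DMSO, while SKOV3 stayed at background, and the gene was at least 34.5-fold higher in OVCAR5 under lovastatin.

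**Figure D1:**
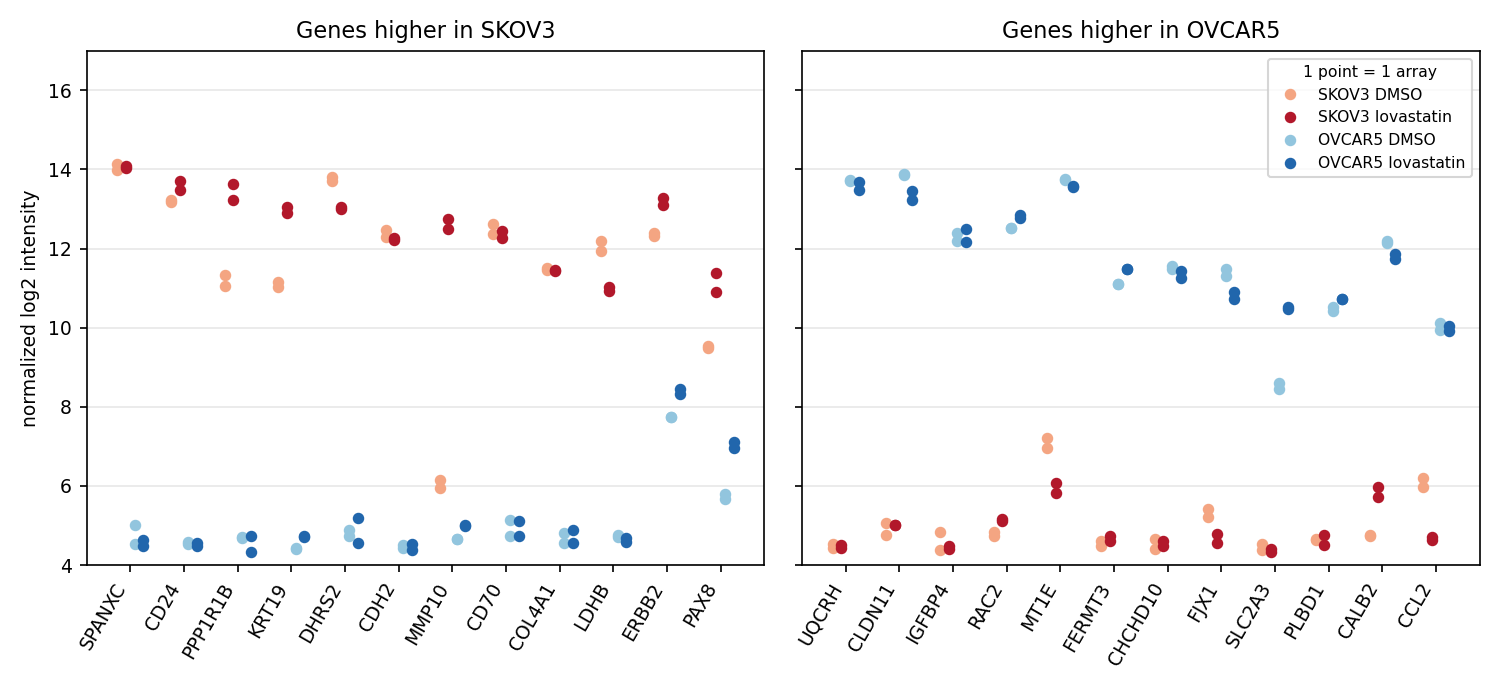
Normalized log2 intensity (vertical axis) of 24 genes on each of the 8 arrays, 1 point an array, with 12 genes higher in SKOV3 on the left and 12 higher in OVCAR5 on the right. The genes were chosen for wide differences, so the lovastatin arrays of the lines do not overlap for any gene shown (83.2% over all genes tested). MMP10 is the gene whose SKOV3 arrays lie near 6 in DMSO and above 12 under lovastatin.

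Genes next to ERBB2 on chromosome 17 were mostly higher in SKOV3. Of 14 tested, 11 were called higher in SKOV3 and 2 in OVCAR5, with a median difference of 1.98 under lovastatin and 0.97 in DMSO, and among the 11 detected on all 4 lovastatin arrays the calls were 8 and 2. ERBB2 read 13.27 and 13.11 in SKOV3 and 8.45 and 8.32 in OVCAR5, a difference of 4.80 ± 0.12 (adjusted p = 1.08e-08), close to its 4.61 in DMSO. GRB7, an adaptor that binds ERBB2, read 9.76 and 9.45 in SKOV3 and was undetected in OVCAR5, at least 17.5-fold higher, with SKOV3 arrays in DMSO at 6.68 and 7.12 and other probes at 1.64 to 3.004. PPP1R1B, the phosphatase inhibitor DARPP-32, read 13.64 and 13.23 against 4.75 and 4.32, at least 248-fold higher (adjusted p = 5.49e-09), although its other probes gave 2.07 to 3.03. For both GRB7 and PPP1R1B the gap under lovastatin was called wider than in DMSO. PGAP3, which remodels lipid anchors, differed by 3.04 ± 0.14. GSDMB, a gasdermin, differed by 3.69 ± 0.19, with other probes from 0.35 to 3.55. The exceptions, named after their values were seen, were CDK12, a transcriptional kinase, at -1.64, and MED24, a Mediator subunit, at -0.41. MED24 lost its call without the OVCAR5 lovastatin replicate 2, with scaling to a common median and with the authors' deposited values, which left 1 member higher in OVCAR5.

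Ovarian lineage genes were mostly higher in SKOV3. Of 11 tested among Muellerian and ovarian carcinoma markers, 8 were called higher in SKOV3 and 2 in OVCAR5 (median 3.05, or 2.09 with undetected genes at their bound), and among the 5 detected on all 4 lovastatin arrays the calls were 3 and 1. PAX8, a transcription factor of Muellerian epithelium, read 11.39 and 10.89 in SKOV3 and 6.95 and 7.11 in OVCAR5, a difference of 4.11 ± 0.17 (adjusted p = 1.43e-07), with other probes at 1.54 to 4.79. MECOM, a zinc finger factor often gained in ovarian cancer, differed by 4.42 ± 0.13, more than the 2.60 in DMSO. SOX17, a partner of PAX8, was at least 7.44-fold and MSLN, the surface protein mesothelin, at least 9.94-fold higher in SKOV3. CRABP2, a retinoic acid carrier, went the other way: it read 10.08 and 10.11 in OVCAR5 and was undetected in SKOV3, at least 26.0-fold higher in OVCAR5.

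Epithelial adhesion genes were called higher in SKOV3 more often than in OVCAR5, in part through genes undetected in OVCAR5. Of 14 desmosome and keratin genes, 11 were called higher in SKOV3 and 0 in OVCAR5 by limma (at an adjusted p under 0.05), and DSC3, KRT8 and PPL were not called. Among the 9 detected on all 4 lovastatin arrays the calls were 7 and 0, and without the OVCAR5 lovastatin replicate 1 PPL was called higher in OVCAR5 (1 member). DSP, the plaque protein desmoplakin, read 9.73 and 9.62 in SKOV3 and 6.46 and 6.57 in OVCAR5, a difference of 3.16 ± 0.15. JUP, plakoglobin, differed by 2.49 ± 0.15, and its other probes gave 0.85 to 1.18. Of 15 genes of adherens and tight junctions and polarity, 11 were higher in SKOV3 and 3 in OVCAR5, and among the 8 detected on all 4 lovastatin arrays 5 and 2. The 3 became 1 without the SKOV3 lovastatin replicate 2, without the OVCAR5 lovastatin replicate 1 and with the authors' deposited values. CLDN1, a claudin of tight junctions, stood at 10.80 and 10.85 in SKOV3 and at 6.11 and 5.73 in OVCAR5, a difference of 4.91 ± 0.15, against 1.77 in DMSO. SPINT2, an inhibitor of membrane serine proteases, differed by 5.87 ± 0.18 and by more in DMSO, 7.03. OVOL2, a transcription factor of the epithelial state, was at least 6.33-fold higher in SKOV3. All SKOV3 lovastatin arrays lay above all OVCAR5 arrays for the genes given with values here.

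Mesenchymal genes went both ways. Of 19 tested, 9 were higher in SKOV3 and 6 in OVCAR5, with a median of 0.43, and among the 15 detected on all 4 lovastatin arrays 6 and 5. VIM, the intermediate filament vimentin, was at 14.27 and 14.14 in SKOV3 and 14.07 and 14.13 in OVCAR5 (difference 0.10 ± 0.12, adjusted p = 0.453). MSN, the actin linker moesin, read 12.73 and 12.58 in SKOV3 against 6.34 and 6.35, a difference of 6.31 ± 0.14. TWIST1 and TWIST2, transcription factors of mesenchymal cells, were at least 5.57-fold and 4.08-fold higher in SKOV3. SKOV3 thus had the higher level of both CDH2 and many junction genes.

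Matrix genes split by chain. Of 22 collagen and laminin chains, 14 were higher in SKOV3 and 6 in OVCAR5 (median 0.71, or 0.42 with undetected genes at their bound). Among the 10 detected on all 4 lovastatin arrays the calls were 5 and 4, so most of the excess in SKOV3 lay in chains not detected on both OVCAR5 arrays. COL4A1, of basement membrane, read 11.42 and 11.45 in SKOV3 and was undetected in OVCAR5, at least 62.2-fold higher, and COL5A1 and COL18A1 were at least 61.8-fold and 42.5-fold higher. COL6A1, a beaded-filament chain, read 11.52 and 11.57 in OVCAR5 and 5.71 and 5.60 in SKOV3, a difference of -5.89 ± 0.14, and COL13A1, a transmembrane collagen, was at least 11.3-fold higher in OVCAR5. Integrin subunits, the receptors of these proteins, were called higher in SKOV3 for 7 and in OVCAR5 for 4 of 15. ITGB4, of hemidesmosomes, differed by 2.46 ± 0.12 under lovastatin, with OVCAR5 arrays at 7.13 and 7.07, and was at least 10.54-fold higher in SKOV3 in DMSO, where OVCAR5 stood at background. ITGA2, a collagen receptor subunit, differed by -2.32 ± 0.14.

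Among matrix proteases and their inhibitors 11 of 20 were higher in SKOV3 and 6 in OVCAR5, and among the 11 detected on all 4 lovastatin arrays 6 and 2. MMP1, an interstitial collagenase, read 11.41 and 11.37 in SKOV3 and 7.6 and 6.68 in OVCAR5, a difference of 4.25 ± 0.27. MMP7, matrilysin, was at least 7.84-fold higher in SKOV3. MMP3, stromelysin-1 and a close relative of MMP10, went the other way, with 8.14 and 8.20 in OVCAR5 and background in SKOV3, at least 6.82-fold higher in OVCAR5. For MMP1, MMP7 and MMP3 the fit called a wider gap under lovastatin than in DMSO. MMP1 was undetected in OVCAR5 in DMSO and at least 4.47-fold higher in SKOV3 there, so how far its gap widened is uncertain.

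HOX genes, which mark position along the body axis, were higher in SKOV3 for 11 of 15 and in OVCAR5 for 3 (median 1.91, or 1.11 with undetected genes at their bound), and among the 9 detected on all 4 lovastatin arrays for 7 and 2. HOXB8 read 10.76 and 10.42 in SKOV3 and 6.40 and 6.01 in OVCAR5, a difference of 4.39 ± 0.20, and HOXB2, HOXB5 and HOXB7 of the same cluster differed by 2.85, 2.49 and 2.46. Among 28 cancer-testis antigen genes with a probe, 5 were kept and 4 were called, each higher in SKOV3 and undetected in OVCAR5. The filter thus fixed the direction of all 4, and the median of 1.28 was 0.36 with these genes at their bound. The member detected on all 4 lovastatin arrays, MAGEB2, was not called, but was called higher in OVCAR5 without the OVCAR5 lovastatin replicate 1. MAGEC2 was at least 26.0-fold and PRAME at least 6.76-fold higher in SKOV3, with second probes at 2.67 and 2.43. Of 10 S100 calcium-binding genes 8 were higher in SKOV3, led by S100A2 (difference 3.51 ± 0.27). In these 3 groups the direction was the same in DMSO for each gene named with a value.

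The line differences in the 2 states were related but not the same. In DMSO 6660 genes were called, 62.5% of all tested, and the differences of the states correlated at r = 0.846 across the 10656 genes, which are not independent replicates. Of the 7492 genes called under lovastatin, 5209 (69.5%) were called in DMSO in the same direction. The difference between the states was itself called for 2990 genes, 28.1% of all tested, 1434 toward SKOV3 and 1556 toward OVCAR5 under lovastatin. Of those called the same way in both states, 862 had a wider gap under lovastatin and 451 a narrower one by that test. Another 941 genes were called under lovastatin, not in DMSO and for the difference, 429 higher in SKOV3 and 512 in OVCAR5. For 273 genes the lines were called in opposite directions, 136 of them higher in SKOV3 under lovastatin and 137 higher in OVCAR5, and the difference between the states was called for all 273.

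**Figure D2:**
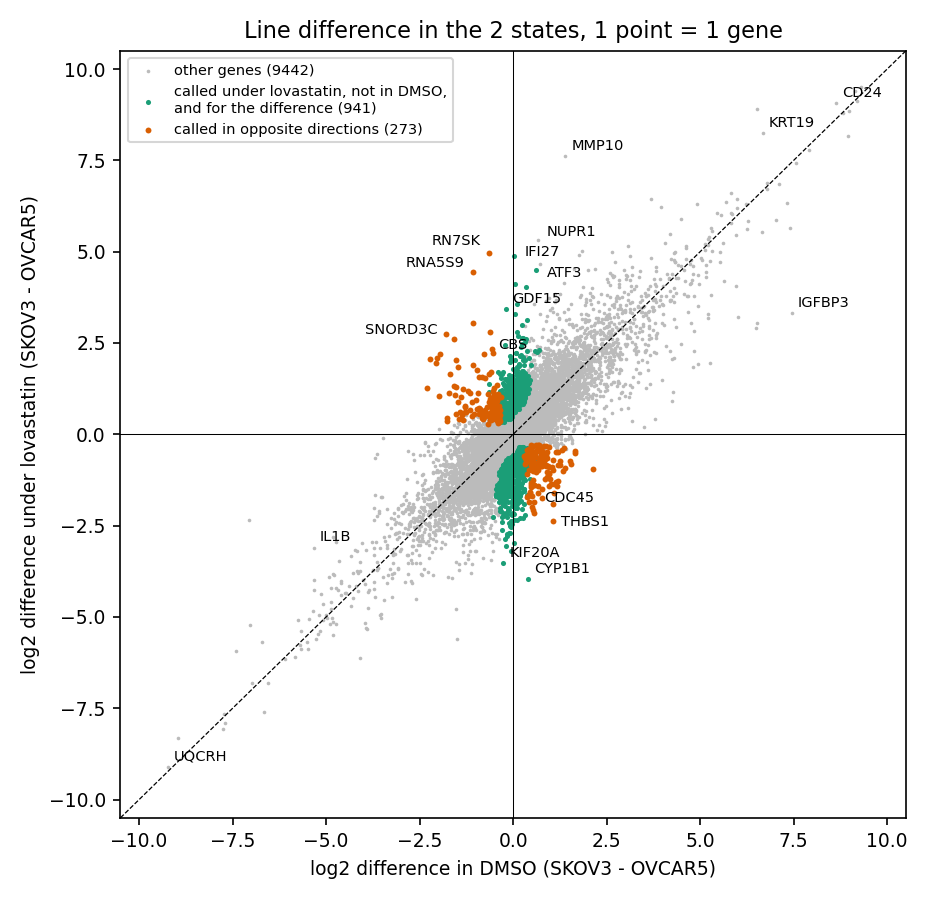
Each point is 1 of 10656 genes, with the log2 difference SKOV3 minus OVCAR5 in DMSO on the horizontal axis and under lovastatin on the vertical axis, and a dashed line where the 2 are equal. The 273 orange genes lie in the quadrants where the lines changed order, the 941 green genes near 0 in DMSO, and MMP10 and IGFBP3 far from the dashed line.

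Toward SKOV3 the widest reversals were mostly short noncoding RNAs, transcripts that as a rule carry no poly(A) tail. RN7SK, which holds back the elongation factor P-TEFb, read 12.90 and 13.002 in SKOV3 and 7.87 and 8.12 in OVCAR5 under lovastatin, a difference of 4.96 ± 0.17 (adjusted p = 5.52e-08). In DMSO it read 6.90 and 7.37 in SKOV3 and 7.80 and 7.78 in OVCAR5, so the 2 SKOV3 lovastatin arrays alone were high, and a second probe differed by 6.65 under lovastatin. RNA5S9, a 5S ribosomal RNA, differed by 4.45 ± 0.16 under lovastatin and by -1.09 in DMSO. RNU4-2, a spliceosomal RNA, differed by 3.05 ± 0.23 and -1.07. SNORD3A and SNORD3C, near-identical U3 snoRNAs that cannot be told apart with certainty, differed by 2.62 and 2.75 under lovastatin and by -1.58 and -1.79 in DMSO. The SKOV3 lovastatin pair was also the pair with the larger spread between its arrays, and the part of RNA quality in these values was not tested. CBS, the enzyme that joins homocysteine and serine, was the protein-coding gene among the 6, at 10.83 and 10.99 in SKOV3 and 8.15 and 8.07 in OVCAR5, a difference of 2.80 ± 0.12, against -0.62 in DMSO.

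Toward OVCAR5 the reversals included genes of DNA replication and matrix. THBS1, the matrix glycoprotein thrombospondin-1, read 6.76 and 6.16 in SKOV3 and 8.80 and 8.90 in OVCAR5 under lovastatin, a difference of -2.39 ± 0.19 (adjusted p = 5.73e-06). In DMSO it read 11.71 and 11.58 in SKOV3 and 10.55 and 10.61 in OVCAR5, so all lovastatin arrays were below all DMSO arrays and SKOV3 was lowest. CDC45, a part of the replicative helicase, differed by -2.07 ± 0.12 under lovastatin and by 0.54 in DMSO. EXO1, a DNA repair exonuclease, differed by -1.99 and 0.50, and OIP5, a centromere loader, by -1.87 and 0.42. E2F2, a transcription factor of S phase, was undetected in SKOV3 under lovastatin and at least 3.08-fold higher in OVCAR5, whereas in DMSO SKOV3 was higher by 1.06. SLC43A2, an amino acid transporter, was at least 2.42-fold higher in OVCAR5. In DMSO it was detected in SKOV3 alone, at 5.67 and 5.61, not far above background. It was at least 1.07-fold higher in SKOV3 there (adjusted p = 0.0452), so its reversal is slight on the DMSO side.

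Other genes had a gap under lovastatin and none called in DMSO. IFI27, an interferon-inducible mitochondrial protein, read 9.62 and 10.04 in SKOV3 under lovastatin and was undetected in the other 3 groups, at least 20.5-fold higher in SKOV3 (adjusted p = 8.71e-08). HRK, a BH3-only protein that promotes apoptosis, read 7.64 and 8.60 on the same 2 arrays and was likewise undetected elsewhere, at least 6.22-fold higher. RIMBP3, a protein of the sperm manchette in mouse, differed by 4.11 ± 0.23, and DNMT3B, a de novo DNA methyltransferase, read 9.65 and 9.60 against 6.25 and 6.76 (difference 3.12 ± 0.18). In the other direction, CYP1B1, a cytochrome P450 of the aryl hydrocarbon response, read 9.91 and 9.86 in OVCAR5 and 6.24 and 5.59 in SKOV3, a difference of -3.97 ± 0.20. Its DMSO arrays lay between, at 8.10 and 8.16 in SKOV3 and 7.65 and 7.84 in OVCAR5. DKK1, a secreted Wnt inhibitor, read 8.01 and 7.85 in SKOV3 and 11.03 and 10.96 in OVCAR5, a difference of -3.06 ± 0.12, with all 4 DMSO arrays between 11.53 and 11.76. A second DKK1 probe gave -1.16. SLCO2B1, an organic anion and statin transporter, was at least 5.49-fold and AKR1B10, an aldo-keto reductase, at least 4.08-fold higher in OVCAR5, and both were undetected in both lines in DMSO.

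Genes of mitosis were higher in OVCAR5 under lovastatin almost throughout. Of 43 tested, 42 were called higher in OVCAR5 and 1 in SKOV3, with a median of -2.09, against 15 and 5 with a median of -0.03 in DMSO. The difference between the states was called toward OVCAR5 for 42 of the 43. KIF20A, a kinesin of cytokinesis, read 7.07 and 7.12 in SKOV3 and 10.63 on both arrays in OVCAR5, a difference of -3.54 ± 0.11 (adjusted p = 3.11e-08), while in DMSO all 4 arrays lay between 10.62 and 10.92. KIF14, another kinesin of cytokinesis, read 6.44 and 6.03 in SKOV3 and 10.08 and 10.19 in OVCAR5, a difference of -3.90 ± 0.16, and -1.75 in DMSO. BUB1, a spindle checkpoint kinase, differed by -3.71 ± 0.17, CDCA3, a regulator of mitotic entry, by -3.54 ± 0.13, and ASPM, a spindle pole protein, by -3.38 ± 0.20. SPC25, a kinetochore subunit, differed by -2.79 ± 0.12, and its second probe by -1.12. MKI67, the proliferation marker Ki-67, was undetected in SKOV3 and at least 1.23-fold higher in OVCAR5. CDC25B, a phosphatase that activates mitotic CDKs, was the member called the other way (difference 0.58, named after its values were seen), at 12.27 and 12.30 in SKOV3 and 11.68 and 11.74 in OVCAR5.

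DNA replication genes showed the same direction. Of 35 tested, 30 were higher in OVCAR5 and 1 in SKOV3, with a median of -1.46, against 5 and 6 with a median of -0.02 in DMSO. RRM2, the small subunit of ribonucleotide reductase, read 5.67 and 5.50 in SKOV3 and 8.85 and 8.73 in OVCAR5, a difference of -3.20 ± 0.12 (adjusted p = 1.05e-07), with DMSO arrays between 9.45 and 9.60. UHRF1, which reads hemimethylated DNA, read 7.91 and 7.68 against 11.04 and 10.92, a difference of -3.19 ± 0.13. TYMS, thymidylate synthase, differed by -2.88 ± 0.12, RFC3, a clamp loader subunit, by -2.68 ± 0.11, and MCM10, a replication initiation factor, by -2.19 ± 0.13. In each of these 5 genes both lines were lower under lovastatin than in DMSO, and SKOV3 was the lower line. CCNE1, cyclin E1 and a CDK2 partner at the start of S phase, was the member called higher in SKOV3, by 0.71, and is named after its values were seen. The count of 1 became 2 without the SKOV3 lovastatin replicate 1, with the trended and robust variance prior and with the authors' deposited values.

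CDKN1A, the CDK inhibitor p21, went the other way. It read 12.01 and 12.30 in SKOV3 and 9.64 and 9.60 in OVCAR5 under lovastatin, a difference of 2.54 ± 0.14 (adjusted p = 7.65e-07), against 0.31 in DMSO, where all arrays lay between 7.36 and 7.78. Among 11 CDK inhibitors, D cyclins and related genes, 2 were higher in SKOV3 and 7 in OVCAR5. CDK6, a D cyclin partner, differed by -1.96 ± 0.11. Of 22 p53 target genes, 10 were higher in SKOV3 and 7 in OVCAR5, with TIGAR, a regulator of glycolysis, at -2.67 ± 0.13, AEN, an apoptosis nuclease, at -2.53 ± 0.12 and GADD45A, a stress protein, at 1.97 ± 0.11.

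MYC and the ribosome biogenesis genes that it is known to drive, listed together with its MAX network, were mostly higher in OVCAR5 in both states. The MAX network itself did not lean to OVCAR5 under lovastatin. Of 26 tested, 21 were higher in OVCAR5 and 4 in SKOV3 under lovastatin (median -1.28), and 18 and 2 in DMSO (median -0.71). The 4, named after their values were seen, were MXD1, MNT and MXI1 of the MAX network and RRP9. MXD3, of the same network, was among the 21, and MAX was not called. MXD3 lost its call without background correction, with scaling to a common median and with the authors' deposited values, among other alternatives. MYC itself read 8.28 and 8.53 in SKOV3 and 11.91 and 11.80 in OVCAR5, a difference of -3.45 ± 0.14 (adjusted p = 1.18e-07), and a second probe gave -3.44. In DMSO its SKOV3 arrays read 11.20 and 11.39 and its OVCAR5 arrays 11.92 and 11.85, so the SKOV3 lovastatin arrays were the low ones. NOP16, a nucleolar protein, differed by -3.03 ± 0.15 and WDR12, of the PeBoW complex, by -2.62 ± 0.14. RRP9, a U3 snoRNP protein chosen after its values were seen, went from -1.58 in DMSO to 1.31 under lovastatin. Of 32 cytosolic ribosomal protein genes, 11 were higher in OVCAR5, 2 in SKOV3 and 19 were not called, with a median of -0.05, and the 11 became 17 with the mean of each gene's probes.

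Genes of the integrated stress response were higher in SKOV3 under lovastatin. This response slows translation through eIF2α and raises ATF4, which drives genes of amino acid supply and cell death. Of 32 tested, 24 were higher in SKOV3 and 4 in OVCAR5, with a median of 1.70, against 10 and 11 with a median of 0.07 in DMSO, and the difference between the states was called toward SKOV3 for 23. ATF3, a stress-induced factor downstream of ATF4, read 11.01 and 11.02 in SKOV3 and 6.44 and 6.62 in OVCAR5, a difference of 4.49 ± 0.29 (adjusted p = 2.09e-06). NUPR1, a chromatin protein of stressed cells, read 10.12 and 10.66 against 5.45 and 4.68, a difference of 5.32 ± 0.26. Both genes were at 7.03 or lower on every DMSO array.

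The other members went both ways. DDIT3, the factor CHOP, read 11.38 and 11.45 in SKOV3 and 8.90 and 9.06 in OVCAR5, a difference of 2.44 ± 0.15, and its DMSO arrays lay between 6.98 and 7.41. CHAC1, which degrades glutathione, read 7.92 and 7.83 in SKOV3 and was undetected in the other 3 groups, at least 5.26-fold higher. INHBE, an activin subunit, differed by 4.02 ± 0.14, and GDF15, a secreted stress hormone, read 11.12 and 11.03 in SKOV3 and 7.67 and 7.64 in OVCAR5, a difference of 3.42 ± 0.12. Both were undetected in both lines in DMSO, and for each the SKOV3 arrays were the higher. DDIT4, an inhibitor of mTORC1, differed by 2.76 ± 0.12, against 2.94 in DMSO, where both lines were lower. SESN2, a sestrin that senses leucine, differed by 2.40 ± 0.30, with OVCAR5 arrays at 5.82 and 4.65. The 4 members called higher in OVCAR5 were STC2, a secreted glycoprotein, at -4.60 ± 0.16, SLC7A11, the cystine transporter, at -2.49 ± 0.13, and PSPH and SLC7A1.

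**Figure D3:**
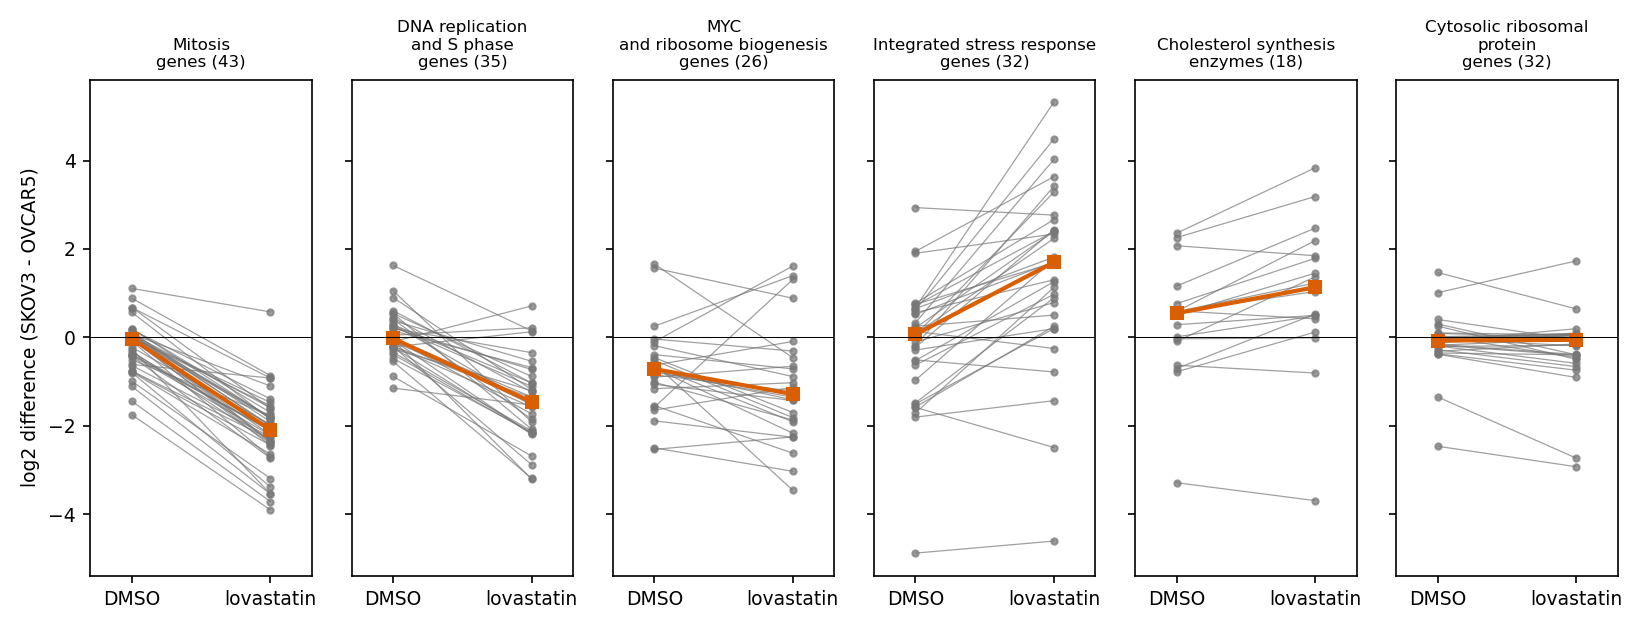
Log2 difference SKOV3 minus OVCAR5 of each tested member of 6 gene lists, in DMSO and under lovastatin, 1 grey line a gene, with the list median in orange. The median of the mitosis genes goes from -0.03 to -2.09, that of the integrated stress response genes from 0.07 to 1.70 and that of the ribosomal protein genes from -0.07 to -0.05.

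Members of 3 lists differed mostly in one direction, and their promoters were read for a motif known for each. Both strands of the 250 bases before the annotated start were read, with RefSeq promoters of GRCh38.p14. The CARE element, searched as TGATGNAA, is bound by ATF4. It was found in 4 of 21 promoters of stress response genes called higher in SKOV3 (19.0%), against 3.19% of all 27305 promoters and 1.32% of those of tested genes. GDF15, DDIT3, DDIT4 and SESN2, described above, had no match, and NUPR1 and INHBE had no promoter to read. Windows are shown only for genes with a match. In the windows below the match is in capitals, in either orientation, and the sequence runs 5′ to 3′ on the gene's strand:
ATF3: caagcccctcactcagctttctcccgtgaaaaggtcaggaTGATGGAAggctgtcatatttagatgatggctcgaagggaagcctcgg
CHAC1: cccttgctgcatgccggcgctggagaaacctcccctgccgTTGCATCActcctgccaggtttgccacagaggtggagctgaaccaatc
ASNS: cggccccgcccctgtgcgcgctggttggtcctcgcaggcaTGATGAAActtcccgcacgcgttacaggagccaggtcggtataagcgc
The ATF3 window is chr1:212565176-212565263 on the plus strand, the CHAC1 window chr15:40953222-40953309 on the plus strand and the ASNS window chr7:97872429-97872516 on the minus strand. ASNS encodes asparagine synthetase and, like the other genes in the windows that have no values above, is shown for its match. Where a gene had several annotated starts, as ATF3 and ASNS do, the first listed was read.

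The cell cycle homology region CHR, searched as TTTGAA, is bound by the MuvB complexes that time mitotic genes. It was found in 19 of 34 promoters of mitosis genes called higher in OVCAR5 (55.9%), against 13.6% of all promoters and 8.46% of those of tested genes. The members with the widest differences, KIF14, BUB1, CDCA3 and KIF20A, had no match. The windows show ASPM, described above, HMMR, a hyaluronan-binding spindle protein whose promoter holds 2 matches side by side, and PLK1, a mitotic kinase, with the match in capitals:
ASPM: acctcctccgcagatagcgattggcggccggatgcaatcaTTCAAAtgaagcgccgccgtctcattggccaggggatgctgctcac
HMMR: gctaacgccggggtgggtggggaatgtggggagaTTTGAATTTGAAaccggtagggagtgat
PLK1: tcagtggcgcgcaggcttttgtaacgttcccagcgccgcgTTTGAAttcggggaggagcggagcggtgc
These lie at chr1:197146737-197146822 on the minus strand, chr5:163460570-163460631 on the plus strand and chr16:23678820-23678888 on the plus strand of GRCh38.p14.

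An E2F site, searched as TTTGGCGC or TTTCCCGC, was found in 13 of 28 promoters of replication genes called higher in OVCAR5 (46.4%), against 1.96% of all promoters and 3.20% of those of tested genes. RRM2 and MCM10, described above, had no match. E2F factors bind such sites and drive entry into S phase. The windows show 3 of the 5 replication genes with values above, with the match in capitals:
UHRF1: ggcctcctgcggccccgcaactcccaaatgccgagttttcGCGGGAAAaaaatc
TYMS: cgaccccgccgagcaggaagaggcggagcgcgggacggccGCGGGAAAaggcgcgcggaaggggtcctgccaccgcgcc
RFC3: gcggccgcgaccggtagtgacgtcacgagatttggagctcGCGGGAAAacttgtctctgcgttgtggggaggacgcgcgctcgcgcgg
They lie at chr19:4909447-4909500, chr18:657574-657652 and chr13:33818054-33818141, all on the plus strand of GRCh38.p14. These matches describe letters in a window, not binding, and overlaps between the motifs were not counted. Each motif was chosen as known for its list, so a raised share describes the list and not the line difference.

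Sterol genes, the ones nearest to the drug's target, were higher in SKOV3. Of 18 cholesterol synthesis enzymes, 14 were higher in SKOV3 and 2 in OVCAR5 under lovastatin (median 1.13), and 10 and 4 in DMSO (median 0.55), and among the 15 detected on all 4 lovastatin arrays 12 and 1 under lovastatin. HMGCS1, the synthase that makes HMG-CoA, read 11.99 on both arrays in SKOV3 and 9.58 and 9.45 in OVCAR5, a difference of 2.47 ± 0.12 (adjusted p = 3.58e-07). In DMSO it read 10.58 and 10.44 in SKOV3 and 9.40 and 9.29 in OVCAR5, so the SKOV3 arrays were the higher in both states and highest with drug. MVD, mevalonate diphosphate decarboxylase, differed by 2.19 ± 0.18 and 0.59 in DMSO. MSMO1, a sterol methyl oxidase, differed by 3.83 ± 0.13, with other probes from 0.62 to 3.86. EBP, a sterol isomerase, was the wide exception at -3.69 ± 0.15, with 9.23 and 9.25 in OVCAR5 and 5.68 and 5.42 in SKOV3. SQLE, squalene epoxidase, read 11.93 and 11.33 in SKOV3 and 11.50 and 11.53 in OVCAR5 (difference 0.12 ± 0.18, adjusted p = 0.577), and its groups overlapped.

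Among 19 genes of sterol sensing, uptake and efflux, 10 were higher in SKOV3 and 5 in OVCAR5, and among the 14 detected on all 4 lovastatin arrays 6 and 4. The 5 became 3 without the SKOV3 lovastatin replicate 2 and with scaling to a common median, where SOAT1 and LIPA lost their calls. INSIG1, which holds SREBP in the endoplasmic reticulum, differed by 2.19 ± 0.12, and its second probe by 0.47. NPC1, the lysosomal cholesterol exporter, differed by 2.52 ± 0.17, and VLDLR, a lipoprotein receptor, was at least 8.43-fold higher in SKOV3. ABCA1, which exports cholesterol, went the other way: it read 5.76 and 5.51 in SKOV3 and 8.29 and 8.01 in OVCAR5, a difference of -2.51 ± 0.15, and all DMSO arrays lay between 7.72 and 7.89. NR1H3, the oxysterol receptor LXRα that drives ABCA1, differed by -2.07 ± 0.14.

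Targets of YAP and TAZ leaned to OVCAR5, with 13 of 22 higher there and 6 higher in SKOV3, and 10 and 3 of the 16 detected on all 4 lovastatin arrays. In DMSO the lean was similar in number, with 11 higher in OVCAR5 and 6 in SKOV3 (median -0.37, against -1.04 under lovastatin). The difference between the states was called toward OVCAR5 for 6 and toward SKOV3 for 4. CCN1, a matricellular protein, read 8.26 and 7.73 in SKOV3 and 10.16 and 10.23 in OVCAR5, a difference of -2.19 ± 0.17 (adjusted p = 5.50e-06), and all DMSO arrays stood between 12.29 and 12.33. CCN2, its relative, differed by -1.34 ± 0.11 under lovastatin and by 0.49 in DMSO. ANKRD1, a nuclear ankyrin protein, was undetected in SKOV3 under lovastatin and at least 3.59-fold higher in OVCAR5, at like levels in DMSO (9.66 and 9.57 against 9.70 and 9.78). In these 3 genes both lines were lower with drug and SKOV3 was the lower. IGFBP3, a growth factor binding protein, read 8.09 and 7.84 in SKOV3 with drug and 12.04 and 11.88 without it, and was undetected in OVCAR5, at least 5.59-fold higher in SKOV3 under lovastatin. SRF targets of the actin cytoskeleton were higher in SKOV3 for 16 of 22 and in OVCAR5 for 2 (1 without either OVCAR5 lovastatin array). In DMSO the counts were 15 and 2, with a median of 0.78, against 0.74 under lovastatin. EGR1, an immediate early factor, differed by 4.36 ± 0.15 under lovastatin and FHL2, a LIM protein, by 2.09 ± 0.14. KLF2, a factor that statins are known to raise in endothelium, read 13.54 and 13.09 in SKOV3 and 12.51 and 12.65 in OVCAR5, a difference of 0.73 ± 0.16.

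Genes of ERK feedback were higher in OVCAR5 for 13 of 23 and in SKOV3 for 5, and 16 and 4 in DMSO. SPRY4, an inhibitor of receptor tyrosine kinase signalling, read 7.06 and 6.71 in SKOV3 and 9.54 and 9.84 in OVCAR5, a difference of -2.81 ± 0.16. In DMSO, where SKOV3 was undetected, it was at least 16.3-fold higher in OVCAR5. DUSP6, an ERK phosphatase, differed by -2.25 ± 0.19 and by -3.65 in DMSO. ETV4, an ETS factor, differed by -2.35 ± 0.13 and was at least 10.6-fold higher in OVCAR5 in DMSO, again with SKOV3 undetected. The narrowing of all 3 was called. Of 16 receptor tyrosine kinases, SKOV3 was called higher for 7 and OVCAR5 for 4, and in DMSO for 5 and 7. Among the 12 detected on all 4 lovastatin arrays the counts under lovastatin were 4 and 3. EGFR read 10.08 and 10.25 in OVCAR5 and 7.23 and 6.90 in SKOV3, a difference of -3.10 ± 0.15. PTK7, a pseudokinase of planar polarity, was at least 17.5-fold higher in SKOV3, and MERTK at least 3.48-fold higher in OVCAR5 (second probe, log2 difference -1.43).

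Cytokine genes were higher in each line in equal number, 9 of 21, and 7 of the 15 detected on all 4 lovastatin arrays. CCL2, a monocyte chemokine, read 9.92 and 10.03 in OVCAR5 and was undetected in SKOV3, at least 23.9-fold higher in OVCAR5. IL1B, the cytokine interleukin-1β, read 11.49 and 11.41 in OVCAR5 and 8.26 and 8.43 in SKOV3, a difference of -3.10 ± 0.12. In DMSO, where SKOV3 stood at background, it was at least 23.97-fold higher in OVCAR5. CXCL8, a neutrophil chemokine, read 13.88 and 13.66 in SKOV3 and 10.75 and 10.69 in OVCAR5, a difference of 3.05 ± 0.13. TNF was at least 9.46-fold higher in SKOV3. For each of these the arrays of the lines did not overlap. NF-κB subunits and feedback genes numbered 6 in each direction of 17, and 3 in SKOV3 and 9 in OVCAR5 in DMSO. The difference between the states was called toward SKOV3 for 7 and toward OVCAR5 for 1. Under lovastatin SOD2, a mitochondrial dismutase, stood at 2.17 ± 0.12 and CD83, a surface protein of activated cells, at -2.08 ± 0.15.

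Interferon-stimulated genes also went both ways, with 10 of 31 higher in SKOV3 and 11 in OVCAR5. Among the 23 detected on all 4 lovastatin arrays these counts were 7 and 8. MX2, an antiviral GTPase, read 9.94 and 10.25 in OVCAR5 and was at background in SKOV3, at least 26.0-fold higher in OVCAR5. MX1, its relative, differed by -3.94 ± 0.12 and IFIT1, which binds foreign RNA, by -2.85 ± 0.15, both wider than in DMSO. BST2, the virion tether tetherin, was at least 25.8-fold higher in SKOV3. Antigen presentation genes were 6 and 6 of 16 under lovastatin, and 2 in SKOV3 and 8 in OVCAR5 in DMSO. The difference between the states was called toward SKOV3 for 8 and toward OVCAR5 for 0. Among the 13 detected on all 4 lovastatin arrays the counts under lovastatin were 6 and 3, with TAP2, a peptide transporter, at -2.22 ± 0.14. HLA-G read 9.78 and 9.75 in SKOV3 and 7.23 and 7.46 in OVCAR5 (difference 2.42 ± 0.13) and HLA-F differed by 1.58 ± 0.17 (second probe 3.93), while HLA-C was at least 3.45-fold higher in OVCAR5. Probes of HLA genes can read related copies and allelic variants, so these 3 values are uncertain. HLA-DRA was not called (difference 0.30 ± 0.19, adjusted p = 0.196), but was called with the authors' deposited values (0.66).

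Detoxification genes went both ways. Of 21 NRF2 targets and aldo-keto reductases, 10 were higher in OVCAR5, 6 in SKOV3 and 5 were not called, with a median of -0.0065. CBR3, a carbonyl reductase, read 8.25 and 8.29 in OVCAR5 and 5.61 and 5.68 in SKOV3, a difference of -2.62 ± 0.15. The probe named AKR1C4 differed by 2.28 ± 0.19, with 12.16 on both SKOV3 arrays, and its near-identical relatives may share its signal. The 5 metallothioneins tested were all called higher in OVCAR5 under lovastatin. MTF1, the metal-responsive factor that drives them, was higher in SKOV3 by 0.64 ± 0.18, a call that ended without the OVCAR5 lovastatin replicate 1 (0.54). Of these 6 genes, 2 were called higher in OVCAR5 and 1 in SKOV3 in DMSO (median 0.04, against -1.08 under lovastatin). Under lovastatin the widest gap was that of MT1E. MT1E, a metal-binding protein, read 13.56 and 13.58 in OVCAR5 and 6.09 and 5.83 in SKOV3, a difference of -7.61 ± 0.14 (adjusted p = 3.49e-09). MT2A differed by -0.78 ± 0.12 under lovastatin and was not called in DMSO (0.30). Copies of this family are alike, so each is uncertain.

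Genes of autophagy and lysosomes were higher in SKOV3 for 23 of 39 and in OVCAR5 for 6, and 15 and 8 in DMSO. MAP1LC3B, the autophagosome protein LC3B, read 11.76 and 11.46 in SKOV3 and 8.92 and 8.91 in OVCAR5, a difference of 2.70 ± 0.13 (adjusted p = 4.09e-07). ULK1, the kinase that starts autophagy, differed by 2.64 ± 0.14, CTSB, a lysosomal protease, by 2.20 ± 0.18, and ATG4A, which processes LC3 relatives, by -2.11 ± 0.17. For MAP1LC3B and ULK1 all 4 lovastatin arrays were above the DMSO arrays of the same line. Of 17 BCL2 family genes, 9 were higher in SKOV3 and 4 in OVCAR5, and among the 14 detected on all 4 lovastatin arrays 8 and 3. The 4 became 2 with the authors' deposited values, as BCL2L11 and BAX lost their calls. Both also lost their calls without the OVCAR5 lovastatin replicate 2. PMAIP1, the BH3-only protein NOXA, read 11.94 and 12.06 in SKOV3 and 9.43 and 9.42 in OVCAR5, a difference of 2.58 ± 0.16, and MCL1, which it binds, differed by 1.39 ± 0.18, with a second probe at 0.46. BID, a BH3-only protein cut by caspase-8, differed by -1.85 ± 0.13, with other probes from -1.89 to -0.09.

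Of 31 hypoxia and glycolysis genes, 14 were higher in SKOV3 and 5 in OVCAR5, and 12 were not called. Among the 27 detected on all 4 lovastatin arrays 11 were higher in SKOV3 and 4 in OVCAR5. The 5 became 3 without the OVCAR5 lovastatin replicate 1. LDHB, the heart subunit of lactate dehydrogenase, read 11.03 and 10.92 in SKOV3 and was undetected in OVCAR5 in both states, at least 45.2-fold higher in SKOV3. BNIP3, a mitophagy receptor, differed by 5.78 ± 0.22 and VEGFA, the angiogenic factor, by 2.79 ± 0.37, with SKOV3 arrays at 9.35 and 10.72. ANGPTL4, a lipase inhibitor, differed by 4.35 ± 0.19, but its other probes gave -0.35 to 1.07. LDHA, PKM and GAPDH, common glycolytic genes, were among those not called.

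**Figure D4:**
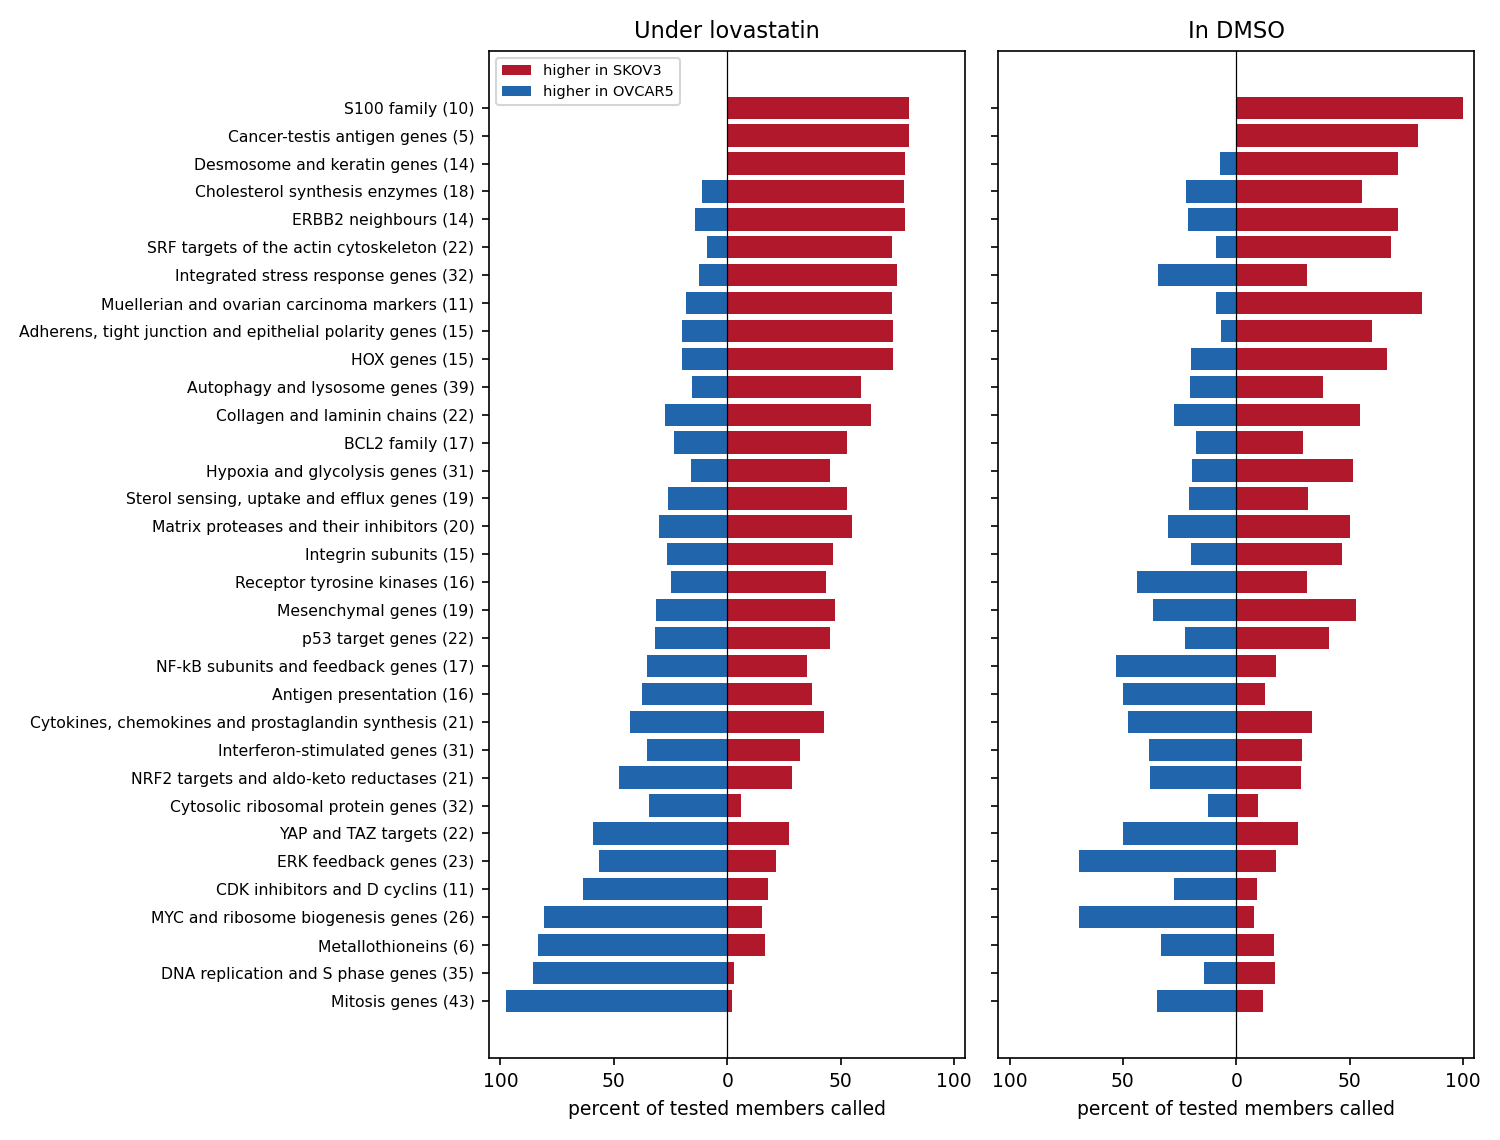
Percent of the tested members of each gene list (number in brackets, lists with at least 5 tested genes) called higher in SKOV3 (red, to the right) or in OVCAR5 (blue, to the left), under lovastatin and in DMSO. Mitosis genes were called higher in OVCAR5 for 42 of 43 under lovastatin and 15 in DMSO, and S100 genes lie to the SKOV3 side in both states. Over all genes 36.2% and 34.1% were called under lovastatin.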

How the data were processed

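RNA of SKOV3 and OVCAR5 cells was measured on Illumina beadchips of 47323 probes, 8 arrays in 4 groups of 2. The authors deposited mean bead intensity per probe, not normalized per the file headers, with a detection p-value per probe and array in the same deposited table. The authors also deposited log2 values, for which the submitters' processing notes name limma without a version or settings. These values lay within 0.01 log2 of neqc run on each line alone for 99.9968% (SKOV3) and 99.9873% (OVCAR5), so they were taken as normalized within a line, uncentred (medians 4.81 and 4.74), and served as an alternative.

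Joint normalization of the 8 arrays used neqc (limma 3.58.1, R 4.3.3) (background from the detection p-values, quantile, log2, offset 16). Of the probes, 30113 had 1 gene symbol in the platform annotation, 8 had several and 17202 were unnamed here, and 30074 of the first matched a RefSeq gene. Several probes were kept for 2744 genes. Among the 1942 of them called under lovastatin, 178 had a probe of opposite sign. A linear model of the 4 group means over the 8 arrays was tested with limma's moderated statistics, adjusted by Benjamini-Hochberg over all 10656 genes, and called at an adjusted p under 0.05. The slide and scan of each array are unknown here. Of these steps, only the model fit and its calls were tested on simulated data. Only 2 arrays per group limit the precision.

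The members, the 37 gene lists and the tests were chosen with earlier results of these data known. Named genes were the 12 widest differences each way among called, detected and non-overlapping genes, up to 5 called members of each list by size, 6 and 6 called in opposite directions in the 2 states, 8 and 8 called only under lovastatin and for the difference between the states, and a set of markers. A list is described by counts and its median. Taking genes undetected in 1 line at their bound moved a median by at most 0.96 over the 33 lists of at least 5 tested genes and changed no sign. Python 3.11.15 with matplotlib 3.10.9 drew the figures. Background correction, normalization, offset, filters, probe choice, variance prior, the replicate number as a block and each array left out were the alternatives.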

Additional observations from a re-analysis of the deposited data

Results flagged for a closer look

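The line difference (SKOV3 minus OVCAR5) under lovastatin minus that in DMSO was called by limma for each of these 28 genes, named by the rules for opposite directions and for calls under lovastatin alone. All values are on the log2 scale, and each gene was chosen for this contrast, so the values are a description. Toward SKOV3 under lovastatin the difference between the states was 5.61 for RN7SK, 5.54 for RNA5S9, 4.12 for RNU4-2, 4.53 for SNORD3C, 4.2 for SNORD3A and 3.42 for CBS, all called in opposite directions in the 2 states. It was 4.85 for IFI27, 4.06 for RIMBP3, 3.87 for ATF3, 3.69 for INHBE, 3.61 for GDF15, 3.47 for HRK, 3.23 for CHAC1 and 2.75 for DNMT3B, which had no called line difference in DMSO. Toward OVCAR5 it was -3.45 for THBS1, -2.97 for E2F2, -2.71 for SLC43A2, -2.61 for CDC45, -2.50 for EXO1 and -2.29 for OIP5, called in opposite directions. It was -4.36 for CYP1B1, -3.27 for KIF20A, -3.14 for RRM2, -2.98 for SLCO2B1, -2.86 for DKK1, -2.67 for TYMS, -2.64 for SPC25 and -2.57 for AKR1B10, with no called line difference in DMSO. The adjusted p-values of these differences ran from 1.49e-05 to 0.000451. Where a gene was undetected in 1 group or more, such as IFI27, CHAC1, HRK and AKR1B10, the size depends on the background level of its probe.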

How the results depend on the processing

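The overall counts stayed within 1.5 times of those reported under each alternative run. Calls under lovastatin ranged from 6595 (without 1 OVCAR5 lovastatin array) to 7715 (no detection filter), and leaving out 1 array gave 6595 to 7318. Scaling to a common median in place of quantile normalization gave 6959, and the authors' deposited values gave 7586, with 61.0% of calls higher in SKOV3 against 51.5% and the median of all genes shifted to 0.22. The 4 lovastatin arrays fitted alone, without the DMSO arrays in the spread, gave 7013 calls, and 7012 when also normalized alone. With the replicate number as a block (replicate block) the calls were 7409 under lovastatin, 6574 in DMSO, 2809 for the difference, 5134 in the same direction and 259 in opposite directions. Whether the replicate numbers pair the samples is not stated in the labels and was not settled. Deviations of same-numbered arrays correlated from -0.24 (SKOV3 and OVCAR5 under lovastatin) to 0.23 (SKOV3 with and without drug). Replicate 1 detected more probes than replicate 2 in each group. Of 222 named genes, SQLE reversed, to -0.0075 with scaling, -0.0091 with the mean of its probes and -0.18 without the SKOV3 lovastatin replicate 1, and it was called at 0.42 without replicate 2. KRT18, ELF3, KRT7 and MTF1 lost their call under 13 settings of a gene and alternative, most of them without 1 array. KRT8 gained a call under 3 settings, the replicate block (0.32) among them, and HLA-DRA with the authors' values (0.66). Of 1406 list counts under an alternative, 45 moved by over 1.5 times, 18 of them when detection on all 4 lovastatin arrays was required; most are given beside the list. Signal over background limits genes undetected in 1 line.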
